A study of Homo sapiens with 9 samples.

Results

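Transcript levels of 10 genes of the YAP/TAZ-TEAD pathway were examined in TC-32, an established human line of Ewing sarcoma driven by the fusion oncogene EWSR1::FLI1. The genes were chosen by symbol, with earlier results of these data known. They were the coactivators YAP1 and WWTR1 (whose protein is called TAZ) and the DNA-binding partners TEAD1 and TEAD2. The pathway components were LATS2, AJUBA and AMOTL2, and the target genes were CTGF, CYR61 and ANKRD1. CTGF and CYR61 are the older symbols, used in the deposited tables, of CCN2 and CCN1. All 10 were found among the 58381 genes measured by RNA-seq, and all 10 passed the filter on low counts, which left 17235 genes for testing. There were 9 libraries in 3 groups of 3. Cells of the RFP group carried the lentiviral pLOC vector with a red fluorescent protein. Cells of the ETS1-Low and ETS1-High groups, here Low and High, carried pLOC with a human ETS1 cDNA, at a lower level or at a level meant to match that of cells depleted of the fusion. No group is labelled as depleted of the fusion, and per the labels' protocols the transduced cells were selected with puromycin and sorted singly. The ETS1 groups are clonal by the study's own description, the number of clones behind each is not given, and whether the RFP cells are a clone is not stated, so a difference between clones and an effect of the ETS1 level cannot be told apart. Nothing in the labels says that the 3 libraries of a group came from separate cultures, so p-values measure the spread between these libraries, which may be technical.

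YAP1 and TAZ are related proteins that cannot bind DNA themselves and switch on genes by joining a TEAD transcription factor at its sites. The Hippo kinase cascade ends in the kinases LATS1 and LATS2, which phosphorylate YAP1 and TAZ and thereby keep them in the cytoplasm. The pathway is thus set largely at the level of protein, which RNA-seq does not see, and the transcript levels of its target genes are commonly read as its output. CCN2, CCN1 and ANKRD1 are the usual reporters, while AMOTL2 and LATS2 are targets that also act against YAP1 and TAZ. In Ewing sarcoma, EWSR1::FLI1 has been reported to interfere with transcription by YAP1 and TEAD.

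The sequences before the start of a reporter gene show the letters that TEAD proteins read. RefSeq promoter windows (GRCh38.p14, 250 bases before to 50 after each annotated start) were found for 8 of the 10 members, 12 windows in all, and not for TEAD1 or CYR61. They were searched on both strands for GGAATG, the core of the TEAD site. Of all 35116 windows in the table, 14% held it at least once, 1.37% held at least 2 copies and 0.128% held at least 3. CTGF had 3 copies, ANKRD1 had 2, and YAP1, AMOTL2, AJUBA and LATS2 had 1 each in 1 of their windows. WWTR1 and TEAD2 had none, which says only that these letters are not in these windows. The 250 bases before the start are printed for both reporters with more than 1 copy, whose transcripts went opposite ways in High against RFP, and for the coactivator with a copy. Capitals mark GGAATG.
CTGF, chr6:131951373-131951622, minus strand: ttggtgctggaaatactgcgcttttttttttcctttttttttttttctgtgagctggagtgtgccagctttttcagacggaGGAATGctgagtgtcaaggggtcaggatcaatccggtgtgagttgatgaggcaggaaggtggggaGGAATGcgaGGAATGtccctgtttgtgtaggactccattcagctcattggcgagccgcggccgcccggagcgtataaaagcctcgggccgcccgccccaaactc
ANKRD1, chr10:90921088-90921337, minus strand: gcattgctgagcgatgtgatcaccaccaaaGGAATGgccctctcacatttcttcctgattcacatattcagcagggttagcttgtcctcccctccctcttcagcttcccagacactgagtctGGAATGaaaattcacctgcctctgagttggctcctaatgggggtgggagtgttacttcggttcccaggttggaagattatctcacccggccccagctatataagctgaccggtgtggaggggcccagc
YAP1, chr11:102110197-102110446, plus strand: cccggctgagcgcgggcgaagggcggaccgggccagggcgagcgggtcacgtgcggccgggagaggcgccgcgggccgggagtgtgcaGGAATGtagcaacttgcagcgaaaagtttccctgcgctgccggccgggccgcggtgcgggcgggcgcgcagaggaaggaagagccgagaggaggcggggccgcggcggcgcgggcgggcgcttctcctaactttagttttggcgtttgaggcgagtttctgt

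In CTGF the first letters of the copies lay 169, 104 and 95 bases before the start, and in ANKRD1 they lay 220 and 128 bases before it. The single copy of YAP1 began 162 bases before the start. The copies of AMOTL2, on the reverse strand, and of AJUBA began 69 and 59 bases before another annotated start of each. Of the 250 bases before that start, 115 in AMOTL2 and all 250 in AJUBA lay in annotated exons of the gene itself. The copy of LATS2 began at base 10 after its start. GGAATG contains GGAA, the core that ETS factors such as ETS1 and FLI1 also read, so the windows were searched for a longer ETS site, CCGGAAGT. It was in 4.14% of all windows and in 0 of the 12 windows of the members. GGAAGGAA, a pair of the cores that EWSR1::FLI1 binds in longer repeats, was in 3.67% of all windows. YAP1 held it at 2 places, from base 90 before and base 40 after the start, and ANKRD1 held it once on the reverse strand, from base 18 after the start. These matches overlapped none of the GGAATG copies, and a match is a description of letters, not of binding.

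**Figure D1:**
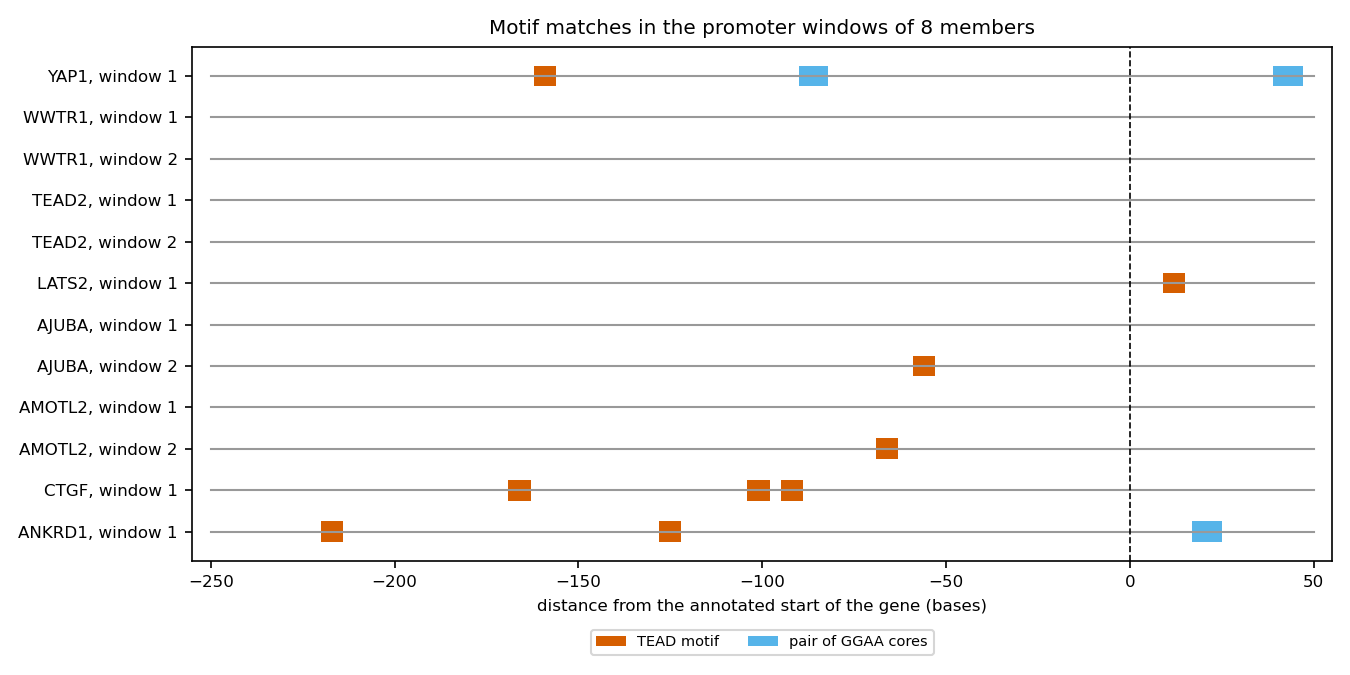
Positions of GGAATG (orange) and GGAAGGAA (blue) on either strand in the 12 promoter windows of 8 members; the x axis is the distance in bases from the annotated start (dashed line), and genes with 2 annotated starts have 2 windows. CTGF holds 3 and ANKRD1 holds 2 of the orange matches, and the windows of WWTR1 and TEAD2 hold 0.

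The libraries held between 39484704 and 46654734 expected counts each. Levels are CPM, counts scaled to TMM-normalised library sizes, differences are log2 fold changes from the edgeR quasi-likelihood test over all 9 libraries, and a gene is called at a Benjamini-Hochberg adjusted p under 0.05 over all genes tested. The introduced gene followed its labels: ETS1 stood at 2.00 ± 0.17 CPM in RFP, 10.6 ± 0.30 in Low cells and 19.1 ± 0.81 in High cells (SD, n = 3), vector and endogenous copies counted together. All 10 Ewing sarcoma markers were detected, PAX7 at no more than 225 counts in a library. Their summed level was 2856 to 2971 CPM in RFP, 4277 to 4341 CPM in Low cells and 4316 to 4342 CPM in High cells. Most of it was carried by CCND1, at 1548 ± 42.4, 2518 ± 20.3 and 2498 ± 15.1 CPM in these groups. All 10 were called higher in each ETS1 group against RFP, as were 37.9% of all tested genes in Low cells and 37.0% in High cells. Those of the 10 with the smallest p in High against RFP were LIPI, CD99 and CCND1, with log2 fold changes of 1.64, 0.83 and 0.69. PAX7, at a low count, had the largest, 1.78. NKX2-2 had the smallest, 0.10, and its High libraries overlapped those of RFP. Of the 8 markers of other cell types, PTPRC, CDH5, EPCAM and KRT19 had at most 9 counts in any library. The summed level of the 8, carried by PDGFRB and COL1A1, was 107 to 121 CPM in RFP, 51.4 to 55.1 CPM in Low cells and 78.3 to 87.1 CPM in High cells. PDGFRB fell by 1.85 on the log2 scale in Low against RFP and by 1.52 in High against RFP, and PECAM1 rose by 1.11 and 1.60. COL1A1 fell by 0.47 in Low against RFP and rose by 0.37 in High against RFP. DCN had 0 to 1 counts in the RFP libraries, 1 to 2 in the Low libraries and 32 to 43 in the High libraries, and was called higher in High against RFP (edgeR adjusted p 2.21e-13). The part of these genes in the results was not tested.

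Of the 10 members, 9 were called in High against RFP, where 74.2% of all tested genes were called, and 9 in Low against RFP, where 74.1% were. In High against Low 9 members were called, against 59.2% of all genes. A call is therefore common to most genes here, and sizes and directions say more. In High against RFP 8 members were called higher (37.0% of all genes) and 1 lower (37.2%). In Low against RFP 3 were called higher (37.9%) and 6 lower (36.2%), and in High against Low 8 were called higher (29.9%) and 1 lower (29.3%). The median log2 fold changes of the 10 were 0.28, -0.33 and 0.57 in these comparisons, against -0.01, 0.01 and -4.67e-05 over all genes. A change of at least 2-fold was called in 2 members in High against RFP (21.0% of all genes), 2 higher (9.64%) and 0 lower (11.4%). It was called in 2 members in Low against RFP (20.6%), 1 higher (8.47%) and 1 lower (12.2%). In High against Low it was called in 2 members (9.74%), 2 higher (6.05%) and 0 lower (3.69%). The 3 comparisons share libraries in pairs, so their values for a gene are not independent of each other.

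**Figure D2:**
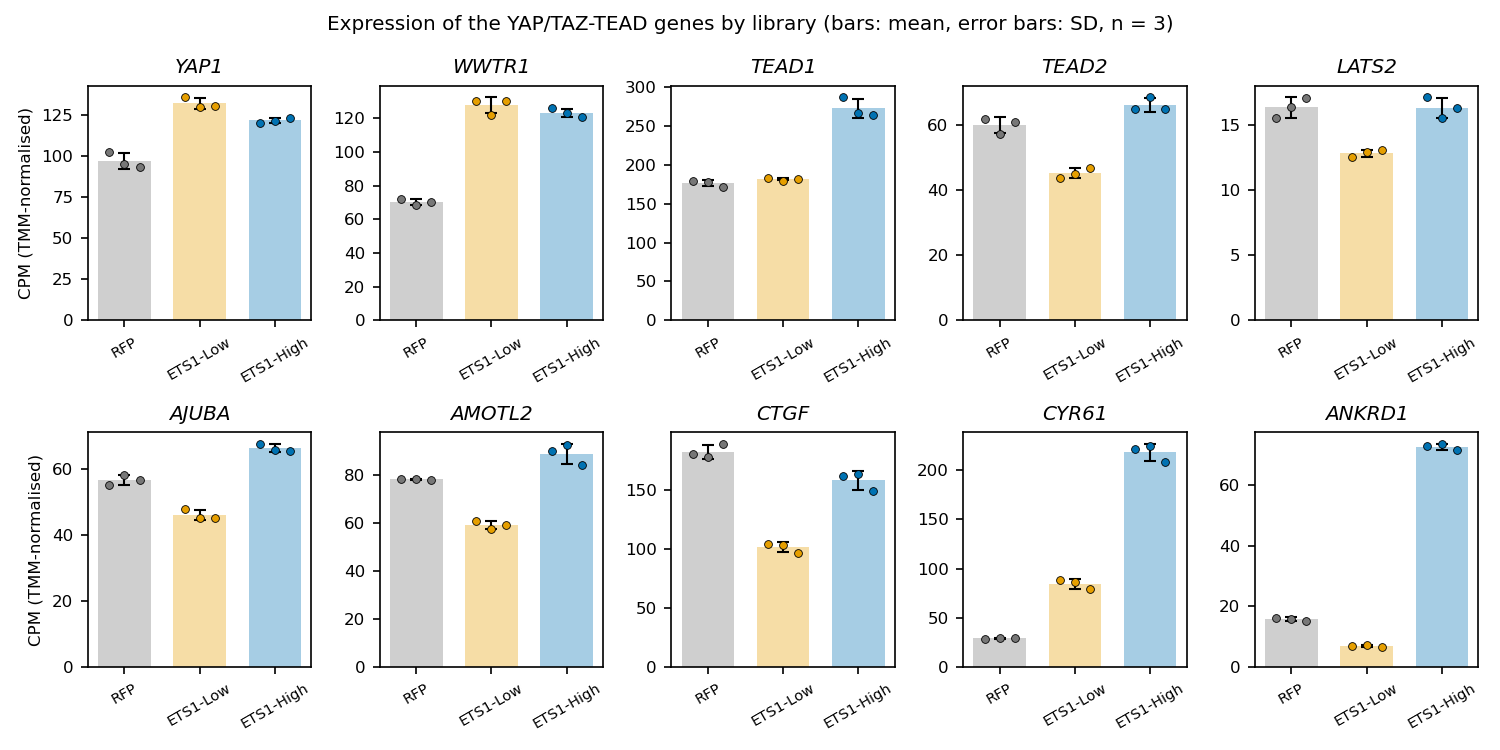
Level of each member in each library (points) in CPM, with the group mean (bar) and SD (error bar, n = 3); each panel has its own y axis from 0. YAP1 and WWTR1 were higher in both ETS1 groups, TEAD2, LATS2, AJUBA, AMOTL2, CTGF and ANKRD1 were lowest in Low cells, and CYR61 stood in the order RFP, Low cells, High cells.

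Both coactivators were higher in cells with introduced ETS1, WWTR1 by more than YAP1, and neither followed the order of the ETS1 level. WWTR1 (ENSG00000018408.14, chromosome 3, 149517235 to 149736714, minus strand) was at 72.0, 68.8 and 70.1 CPM in the RFP libraries, at 131, 122 and 131 CPM in Low cells and at 126, 123 and 121 CPM in High cells. Every ETS1 library was above every RFP library, and the ETS1 groups overlapped. Against RFP, WWTR1 rose 1.82-fold in Low cells (log2 0.86, SE 0.03, edgeR adjusted p 1.01e-28) and 1.75-fold in High cells (log2 0.81, SE 0.03, edgeR adjusted p 1.24e-27). The difference between both ETS1 groups was -0.05 on the log2 scale (edgeR adjusted p 0.166). It passed the threshold without ETS1-Low replicate 2 (log2 -0.08, edgeR adjusted p 0.0439). In bulk libraries, fewer expressing cells and less RNA per cell cannot be told apart.

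YAP1 (ENSG00000137693.13, chromosome 11, 102110447 to 102233424, plus strand) was at 102, 94.9 and 93.2 CPM in RFP, at 136, 129.7 and 130.0 CPM in Low cells and at 120.1, 121 and 123 CPM in High cells. No group overlapped another, and the Low group was the highest. YAP1 rose by log2 0.44 (SE 0.03, edgeR adjusted p 3.04e-17) in Low cells and by 0.33 (SE 0.03, edgeR adjusted p 1.12e-12) in High against RFP. It was lower in High cells than in Low cells by a log2 difference of -0.12 (edgeR adjusted p 0.0018). The rises over RFP were smaller in the deposited FPKM values, down to 0.23 and 0.11 on the log2(FPKM + 1) scale, and remained past the threshold there.

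Since FPKM is scaled to gene length, it allows the coactivators to be set side by side. In RFP the FPKM of YAP1 was 24.6 ± 0.58 and that of WWTR1 20.2 ± 0.66 (SD, n = 3), so WWTR1 stood at 0.825 ± 0.042 times YAP1. The ratio was 1.16 ± 0.044 in Low cells and 1.22 ± 0.062 in High cells. WWTR1 was thus below YAP1 in each RFP library and above it in each library with introduced ETS1. The summed FPKM of both was 44.8 ± 0.53 in RFP, 62.4 ± 2.62 in Low cells and 58.9 ± 1.00 in High cells.

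Of the TEAD genes, which encode the proteins that carry YAP1 and TAZ to DNA, TEAD1 rose in High cells and TEAD2 fell in Low cells. TEAD1 (ENSG00000187079.16, chromosome 11, 12674421 to 12944737, plus strand) was at 179.7, 178 and 172 CPM in RFP, 183, 179.8 and 182 CPM in Low cells and 287, 267 and 265 CPM in High cells. The High libraries stood alone, with RFP and Low cells next to each other. TEAD1 rose 1.55-fold in High against RFP (log2 0.63, SE 0.03, edgeR adjusted p 4.05e-24) and by log2 0.59 against Low (SE 0.03, edgeR adjusted p 2.56e-22). In Low against RFP the log2 difference was 0.04 (SE 0.03, edgeR adjusted p 0.224). The FPKM values turned this difference to -0.23 on the log2(FPKM + 1) scale (limma adjusted p 0.000217), so no direction is given for TEAD1 in Low cells. The transcript length implied by count and FPKM of TEAD1 also differed, at 5.54 ± 0.090 kb in RFP and 6.12 ± 0.22 kb in Low cells (SD, n = 3), and its part was not tested.

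TEAD2 (ENSG00000074219.13, chromosome 19, 49340595 to 49362457, minus strand) was at 61.9, 57.2 and 60.9 CPM in RFP, 43.7, 44.9 and 46.7 CPM in Low cells and 64.7, 68.5 and 64.8 CPM in High cells. The Low group was below both other groups without overlap. TEAD2 fell by 0.41 (SE 0.04, edgeR adjusted p 6.33e-14) on the log2 scale in Low against RFP, and the High group was above Low cells by 0.55 (SE 0.04, edgeR adjusted p 5.78e-18). The difference of 0.14 between High cells and RFP (edgeR adjusted p 0.000689) was 0.05 in FPKM and did not pass there (limma adjusted p 0.299).

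The other TEAD paralogs and the VGLL cofactors, which compete with or assist YAP1 and TAZ on TEAD proteins, form a list of 6 genes of which 4 were tested. VGLL1 and VGLL2 had at most 4 counts in a library. In High against RFP 3 of the 4 were called higher (37.0% of all tested genes) and 1 lower (37.2%). In Low against RFP 1 was higher (37.9%) and 3 lower (36.2%). TEAD4 rose from 18.4 ± 0.79 CPM in RFP cells to 39.5 ± 0.69 CPM in Low cells and 36.3 ± 1.60 CPM in High cells (SD, n = 3), log2 fold changes of 1.10 (edgeR adjusted p 2.2e-27) and 0.98 (edgeR adjusted p 3.36e-25). TEAD3 went from 23.2 ± 1.39 to 18.8 ± 0.90 and 26.9 ± 1.498 CPM, the same order of groups as TEAD2. VGLL4, known as a repressor that competes with YAP1 for TEAD proteins, fell from 39.1 ± 1.19 to 33.8 ± 1.19 and 30.9 ± 0.39 CPM. VGLL3, named after its values were seen, was at 1.11 ± 0.12 CPM in RFP, 0.13 ± 0.06 CPM in Low cells and 1.53 ± 0.18 CPM in High cells, with 4 to 9 counts in the Low libraries and 46 to 78 in the others.

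In FPKM, TEAD1 and TEAD2 made up 37.4% ± 0.73 and 37.2% ± 0.53 of the summed TEAD level of RFP and overlapped each other, with TEAD4 at 15.5% ± 0.049 and TEAD3 at 9.95% ± 0.64 (SD, n = 3). TEAD4 held 31.3% ± 1.26 in Low cells, more than the 27.5% ± 1.20 of TEAD2, and 21.8% ± 0.26 in High cells. The sum of the TEAD FPKM values was 90.01 ± 0.31 in RFP, 85.2 ± 2.23 in Low cells and 114.5 ± 2.14 in High cells. FPKM carries no TMM factor, which was 1.05 to 1.07 in the RFP libraries and 0.958 to 0.968 in the Low libraries. No direction is therefore given for the sum in Low cells against RFP.

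**Figure D3:**
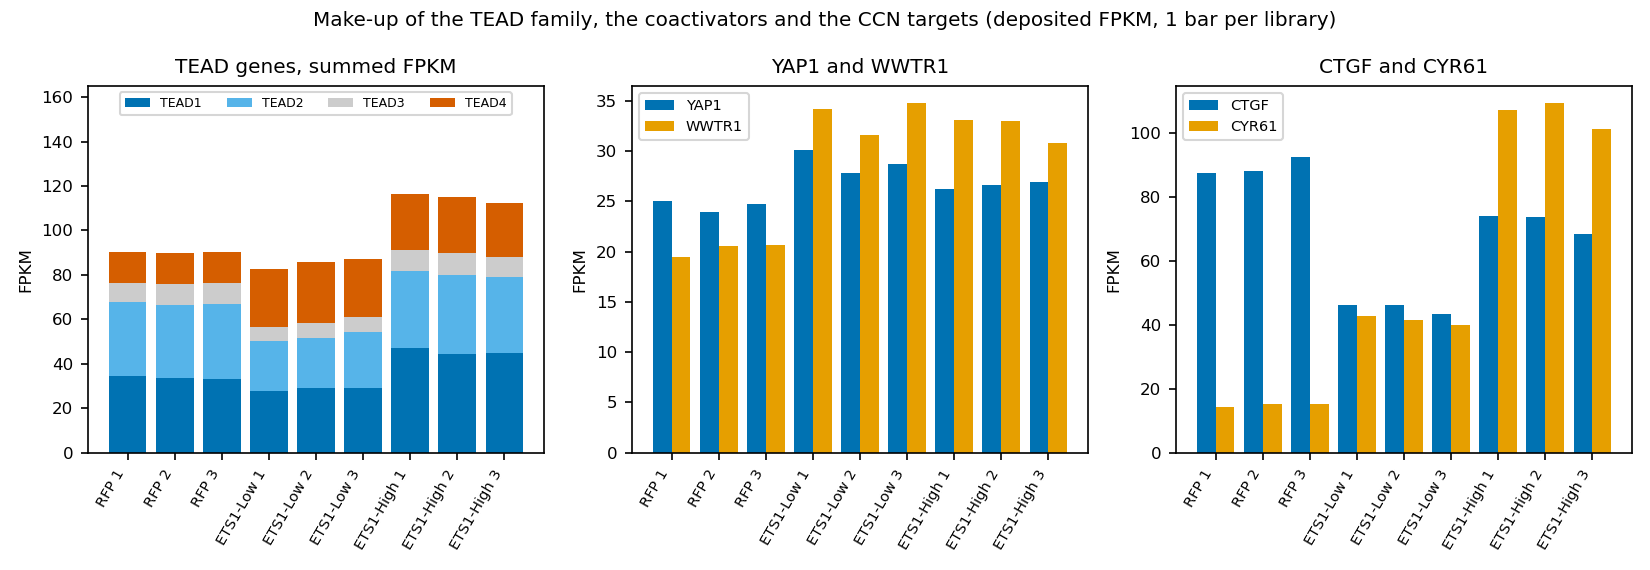
Deposited FPKM in each library: the TEAD genes stacked, YAP1 beside WWTR1, and CTGF beside CYR61; y axes are FPKM from 0 and each bar is 1 library. TEAD4 takes its largest share in Low cells (31.3%), WWTR1 overtakes YAP1 in both ETS1 groups, and CYR61 overtakes CTGF in High cells.

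AMOTL2, AJUBA and LATS2, which act on YAP1 and TAZ or on the kinases above them, were lowest in Low cells, and none of them differed by 2-fold between any groups. AMOTL2 (ENSG00000114019.14, chromosome 3, 134355347 to 134375479, minus strand), an angiomotin that holds YAP1 and TAZ in the cytoplasm, was at 78.2, 78.3 and 77.9 CPM in RFP, 60.9, 57.6 and 59.3 CPM in Low cells and 89.9, 92.3 and 84.0 CPM in High cells. It fell by 0.40 (SE 0.04, edgeR adjusted p 1.38e-14) on the log2 scale in Low against RFP. The High group was above Low cells by 0.58 (SE 0.04, edgeR adjusted p 3.39e-20), and the groups did not overlap. The rise of 0.18 in High against RFP (edgeR adjusted p 3.87e-06) was 0.09 in FPKM and did not pass there (limma adjusted p 0.0578).

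AJUBA (ENSG00000129474.15, chromosome 14, 22971177 to 22982551, minus strand) encodes a LIM protein that binds and restrains the LATS kinases. Its levels were 55.3, 58.2 and 56.8 CPM in RFP, 47.8, 45.2 and 45.1 CPM in Low cells and 67.8, 65.8 and 65.4 CPM in High cells, again without overlap. AJUBA fell by 0.30 (SE 0.04, edgeR adjusted p 2.39e-10) in Low against RFP, with -0.46 to -0.49 in the FPKM values, and was 0.53 (SE 0.04, edgeR adjusted p 5.77e-18) higher in High cells than in Low cells. Its log2 difference of 0.22 between High cells and RFP (edgeR adjusted p 1.47e-07) was 0.08 in FPKM, which did not pass (limma adjusted p 0.0859).

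LATS2 (ENSG00000150457.8, chromosome 13, 20973036 to 21061586, minus strand), the kinase, was the least abundant member in each group, at 2.37 to 3.24 FPKM on average. It was at 15.5, 16.4 and 17.1 CPM in RFP, 12.5, 12.9 and 13.1 CPM in Low cells and 17.1, 15.6 and 16.3 CPM in High cells. RFP and High cells overlapped, with a log2 difference of -0.005 (SE 0.06, edgeR adjusted p 0.944). LATS2 fell by 0.35 (SE 0.06, edgeR adjusted p 1.58e-06) in Low against RFP and was 0.34 (SE 0.06, edgeR adjusted p 4.04e-06) higher in High cells than in Low cells.

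The 3 reporters went different ways against RFP. CYR61 (ENSG00000142871.16, chromosome 1, 85580761 to 85584589, plus strand) encodes CCN1, a secreted matricellular protein that binds integrins. It was at 28.0, 29.3 and 29.2 CPM in RFP, 88.1, 86.4 and 78.9 CPM in Low cells and 221, 225 and 208 CPM in High cells. The groups followed the order of the ETS1 level without overlap. CYR61 rose 2.93-fold in Low cells (log2 1.55, SE 0.04, edgeR adjusted p 1.65e-30) and 7.58-fold in High against RFP (log2 2.92, SE 0.04, edgeR adjusted p 5.64e-41). The High group was 2.59-fold above Low cells (log2 1.37, SE 0.04, edgeR adjusted p 2.96e-30).

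ANKRD1 (ENSG00000148677.6, chromosome 10, 90912096 to 90921087, minus strand) encodes an ankyrin repeat protein of muscle and endothelium and had the largest log2 fold change among the members, that between the ETS1 groups. Its levels were 16.2, 15.8 and 15.1 CPM in RFP, 6.93, 7.07 and 6.47 CPM in Low cells and 72.7, 73.6 and 71.5 CPM in High cells, from 262 to 3308 counts. Low cells lay below RFP and High cells above it, with no overlap. ANKRD1 was 2.30-fold lower in Low cells than in RFP (log2 -1.20, SE 0.06, edgeR adjusted p 2.67e-24) and 4.62-fold higher in High cells than in RFP (log2 2.21, SE 0.04, edgeR adjusted p 1.12e-41). Between the ETS1 groups the difference was 10.6-fold (log2 3.41, SE 0.05, edgeR adjusted p 4.7e-46).

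CTGF (ENSG00000118523.5, chromosome 6, 131948176 to 131951372, minus strand) encodes CCN2, a relative of CCN1, and was the most abundant member of RFP in FPKM. It was at 181, 178 and 189.6 CPM in RFP, 105, 103 and 97.1 CPM in Low cells and 162, 164 and 149 CPM in High cells. Both ETS1 groups were below RFP without overlap, Low cells by more. CTGF was 1.80-fold lower in Low cells than in RFP (log2 -0.85, SE 0.04, edgeR adjusted p 8.7e-23) and 1.15-fold lower in High cells (log2 -0.21, SE 0.03, edgeR adjusted p 1.4e-06), with -0.31 for the latter in FPKM. It was 1.56-fold higher in High cells than in Low cells (log2 0.64, SE 0.04, edgeR adjusted p 2.09e-18).

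On the FPKM scale the CCN genes changed places. The FPKM of CYR61 was 0.167 ± 0.0065 times that of CTGF in RFP, 0.916 ± 0.012 times in Low cells and 1.47 ± 0.021 times in High cells (SD, n = 3). In RFP the order of the members by mean FPKM was CTGF (89.5), TEAD1 (33.7), TEAD2 (33.5), YAP1 (24.6), WWTR1 (20.2), AMOTL2 (20.2), AJUBA (17.9), CYR61 (14.9), ANKRD1 (9.23) and LATS2 (3.24). The libraries of TEAD1 and TEAD2, and those of WWTR1 and AMOTL2, overlapped. In High cells the order began with CYR61 (106), CTGF (72.2), TEAD1 (45.5) and ANKRD1 (39.7), and no neighbours in it overlapped. In Low cells ANKRD1 was next to last (3.65), and YAP1 and TEAD1 overlapped.

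**Figure D4:**
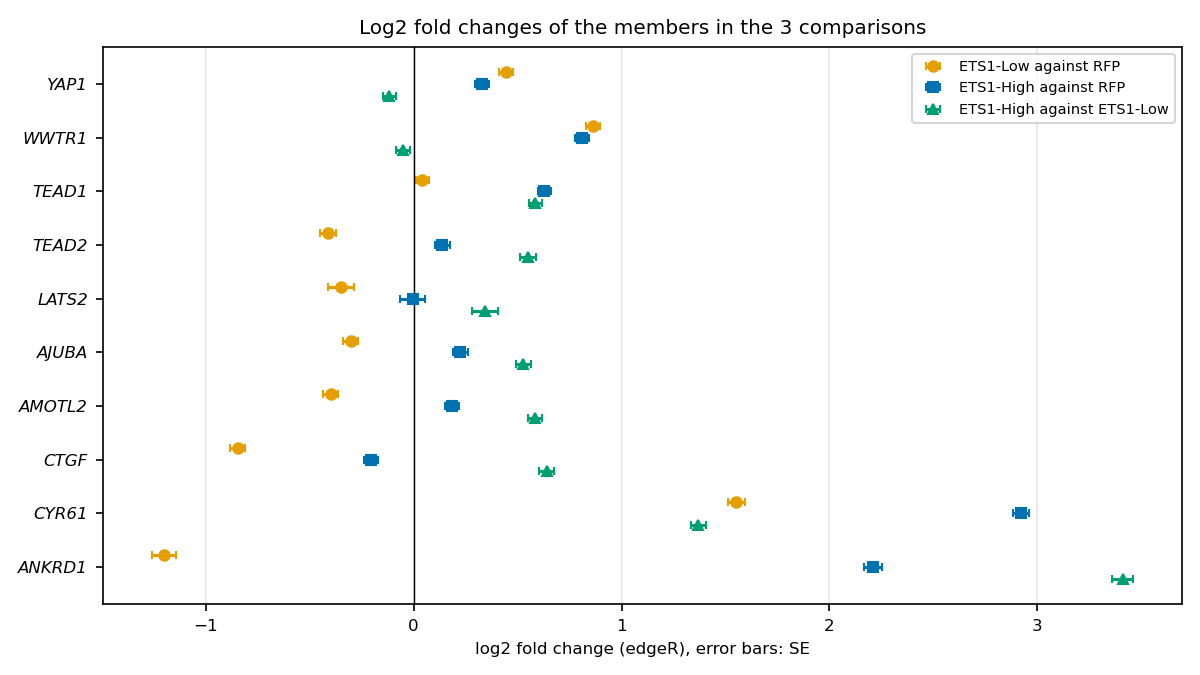
Log2 fold change of each member (x axis, error bars are the SE of the edgeR fit) in the 3 comparisons, with genes on the y axis. CYR61 lies right of 0 in all 3, ANKRD1 runs from -1.20 to 3.41, and the difference between High cells and Low cells lies between 0.34 and 0.64 for TEAD1, TEAD2, LATS2, AJUBA, AMOTL2 and CTGF.

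Other genes of the pathway came from lists drawn up by general knowledge, but with earlier results of these data known. The list of Hippo kinases and regulators held 30 genes, all tested. In High against RFP 17 were called higher (37.0% of all tested genes), 8 lower (37.2%) and 5 not called, with a median log2 fold change of 0.11. In Low against RFP 15 were higher (37.9% of all tested genes) and 11 lower (36.2%), with a median of 0.07. In High against Low 14 were higher (29.9%) and 9 lower (29.3%), with a median of 0.08. Among those averaging 100 counts or more, the 3 with the smallest p in High against RFP were AMOT, AMOTL1 and FRMD6. AMOT, the founding angiomotin, went from 90.03 ± 2.61 CPM in RFP cells to 70.2 ± 0.27 CPM in Low cells and 197 ± 3.21 CPM in High cells (SD, n = 3), with log2 fold changes of -0.36 (edgeR adjusted p 3.68e-14) and 1.13 (edgeR adjusted p 2.74e-35). Like AMOTL2 and ANKRD1 it was lowest in Low cells. AMOTL1 rose from 72.6 ± 0.88 to 109 ± 1.19 and 120.1 ± 6.76 CPM. FRMD6, a membrane-associated protein that acts upstream of the kinases, rose from 11.5 ± 0.48 to 20.5 ± 1.35 and 24.4 ± 0.57 CPM. DCHS1, named after its values were seen, fell from 127.7 ± 2.04 to 13.9 ± 0.97 and 39.4 ± 3.79 CPM. Its log2 fold changes of -3.20 in Low against RFP and -1.70 in High against RFP were the lowest of the list.

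A further 25 target genes of YAP1 and TAZ were listed, of which AMOTL1, PTPN14 and NUAK2 also stand in the list of regulators. All 25 were tested. In High against RFP 14 were called higher (37.0% of all tested genes) and 11 lower (37.2%), with a median log2 of 0.25. By at least 2-fold, 6 were higher (9.64% of all tested genes) and 4 lower (11.4%). In Low against RFP 9 were higher (37.9% of all tested genes) and 11 lower (36.2%), with a median of -0.04. In High against Low 13 were higher (29.9%) and 10 lower (29.3%), with a median of 0.14. Over all tested genes, calls went in both directions in near-equal numbers too, 6372 higher and 6413 lower in High against RFP. A mix of directions is thus not particular to the targets. Of the targets 100% were called there, against 74.2% of all tested genes, and this difference was not tested. MYOF, which encodes the membrane repair protein myoferlin, rose from 40.8 ± 0.71 CPM in RFP cells to 281 ± 1.71 CPM in Low cells and 164 ± 5.18 CPM in High cells (SD, n = 3). F3, the tissue factor that starts blood clotting, rose from 5.31 ± 0.47 to 36.1 ± 0.38 and 29.8 ± 1.36 CPM. TGFB2, a TGF-beta ligand, rose from 10.9 ± 0.54 to 16.1 ± 0.90 and 60.8 ± 1.38 CPM, the order of the groups seen in CYR61. The log2 fold changes of MYOF, F3 and TGFB2 in High against RFP were 2.01, 2.49 and 2.48, and the largest of their edgeR adjusted p-values was 2.5e-37. They were named by their p there, where 11 targets were called lower. Of those 11, NT5E and THBS1 were named after their values were seen. NT5E fell from 105.5 ± 1.96 to 31.1 ± 0.35 and 54.6 ± 1.64 CPM. THBS1, with 12 to 18 counts in the Low libraries, fell from 6.90 ± 1.00 to 0.35 ± 0.05 and 1.94 ± 0.36 CPM.

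CTGF, CYR61 and ANKRD1 also respond to SRF and its actin-sensing cofactors of the MRTF family, so a list of 14 such factors and targets was read out beside them, of which 13 were tested. In High against RFP 7 were called higher (37.0% of all tested genes) and 4 lower (37.2%), with a median log2 of 0.38. In Low against RFP 3 were higher (37.9%) and 8 lower (36.2%), with a median of -0.44. In High against Low 9 were higher (29.9%) and 1 lower (29.3%), with a median of 0.44. VCL, the adhesion protein vinculin, rose from 148 ± 4.91 CPM in RFP cells to 334.7 ± 2.26 CPM in Low cells and 304 ± 11.3 CPM in High cells (SD, n = 3). TPM1, a tropomyosin that lines actin filaments, rose from 46.1 ± 2.30 to 63.1 ± 0.15 and 93.0 ± 1.90 CPM. CNN2, a calponin, rose from 127.7 ± 3.40 to 159 ± 5.42 and 166 ± 6.80 CPM. VCL, TPM1 and CNN2 were named by their p in High against RFP, and are the 3 genes called higher in Low against RFP. The 8 called lower there ranged from CNN1, at a low count (log2 -2.53), to SRF (-0.11). ACTA2 was at -1.79 and TAGLN at -1.75.

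The genes most like YAP1 and CTGF across the 9 libraries were sought by Pearson's r of log2 CPM among 12399 genes averaging 100 counts or more. The 9 libraries fall into 3 groups, so r mostly compares the group means and is a description. EID1, RPS19BP1 and NAA15 were nearest to YAP1, at r of 0.994, 0.992 and 0.991, and 7.20% of the genes had an r over 0.95. Within the members WWTR1 was the nearest to YAP1, at 0.963. PRPS1, CDK6 and ACTA2 were nearest to CTGF, at 0.997, 0.997 and 0.996, with 3.86% of the genes over 0.95. ACTA2, the smooth muscle actin that stands in the MRTF and SRF list, had 43.7 ± 0.76 CPM in RFP, 12.7 ± 0.27 CPM in Low cells and 31.0 ± 3.23 CPM in High cells (SD, n = 3). Among the members, LATS2 (0.927) and TEAD2 (0.867) were nearest to CTGF, and YAP1 was at -0.830.

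Each member was also set beside the tested genes that start within 5 Mb of it. The members lay outside the quartiles of their neighbours in 5 of 10 cases in Low against RFP, 4 of 10 in High against RFP and 8 of 10 in High against Low. Of the 16678 tested genes with at least 20 such neighbours, 51.7% lay outside in each comparison, so the counts of 5 and 4 are near the background. ANKRD1 stood against its neighbourhood, since the median of its 59 neighbours was -0.46 on the log2 scale in High against RFP and -0.35 in High against Low, where ANKRD1 rose by 2.21 and 3.41. The 46 neighbours of CYR61 had medians of 0.33 in Low against RFP and 0.11 in High against RFP, and the 32 neighbours of WWTR1 had medians of -0.05 and 0.02. For CTGF the 38 neighbours were lower as well, by medians of -0.50 in Low against RFP and -0.40 in High against RFP, beside -0.85 and -0.21 for CTGF. The 21 neighbours of YAP1 had medians of 0.17 and 0.20, beside 0.44 and 0.33 for YAP1, and the 37 of LATS2 had -0.24 in Low cells, beside -0.35. TEAD2 fell in Low cells by 0.41 while its 249 neighbours were higher by a median of 0.42. The part of the neighbourhood in the differences of CTGF, YAP1 and LATS2 was not tested.

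**Figure D5:**
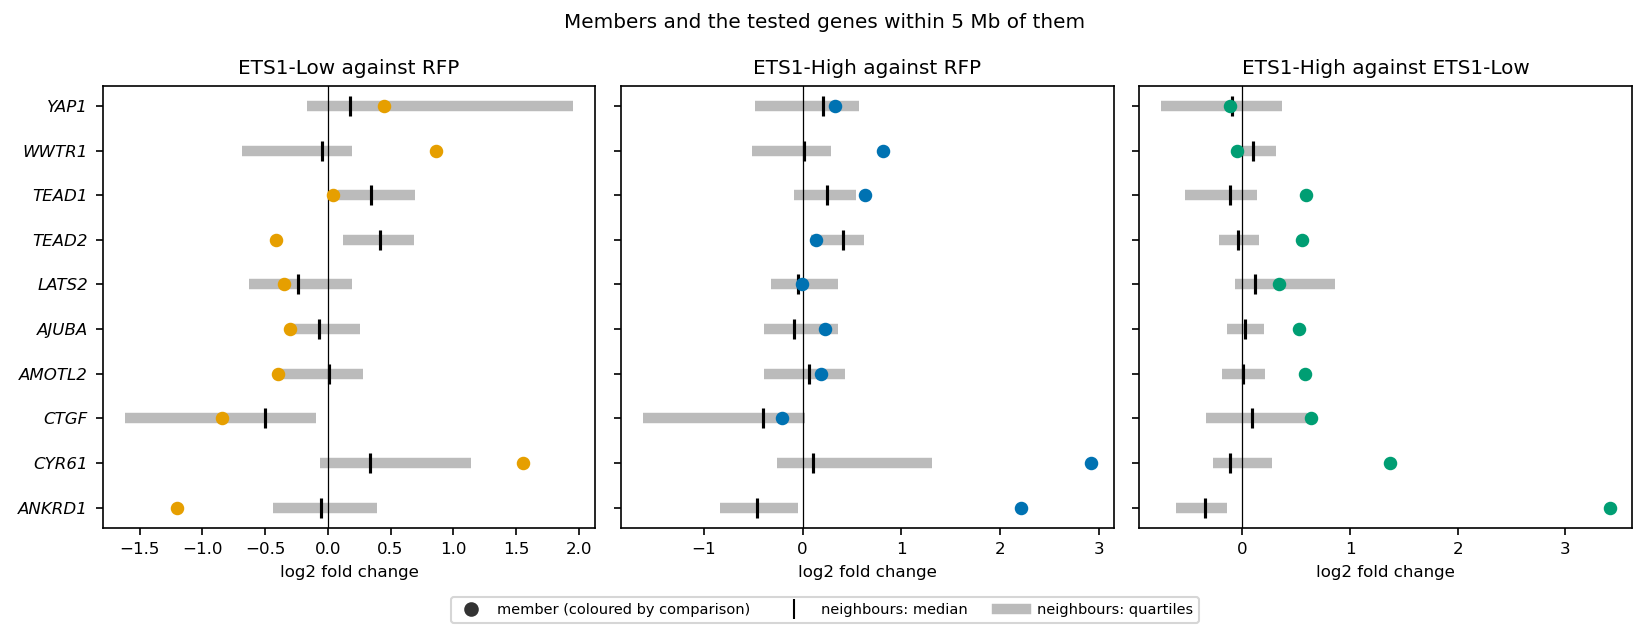
Log2 fold change of each member (coloured point) beside the median (black tick) and quartiles (grey bar) of the tested genes that start within 5 Mb, 1 panel per comparison. In the right panel 8 of 10 members lie outside the grey bars, WWTR1 by the least (-0.0513 beside a quartile of -0.0496). In the left panel CTGF, YAP1, LATS2, AMOTL2 and AJUBA lie within them.

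Read sharing limits a few members. In GENCODE v44, exons of YAP1, WWTR1, TEAD2 and CTGF overlap genes on the opposite strand (for TEAD2, CD37, and for CTGF, LINC01013), and the library kit keeps strand, but whether reads were assigned by strand is not given in the sources used here. Exons of AMOTL2 and AJUBA overlap another gene on their own strand, so their levels are uncertain to that extent. The expected counts of LATS2 were whole numbers in all 9 libraries, and those of WWTR1 were not whole in 5, the most of any member.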

How the data were processed

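RNA-seq was analysed in 9 libraries of the cell line TC-32 (RFP, ETS1-Low and ETS1-High, 3 each), grouped by sample title, with the L and H of the column names read as Low and High; 0 columns were left without a library. The authors deposited RSEM expected counts and RSEM FPKM values per gene, per the file headers and names. The submitters' processing notes name cutadapt 4.4, STAR 2.7.3, featureCounts of Subread 2.0.3, limma 3.38.3 and GRCh38, without roles; how these relate to the RSEM files, and the annotation, are not given in the sources used here. FPKM values are scaled by the authors to gene length and depth and carry no TMM factor; on that scale fold changes are of log2(FPKM + pseudocount), which understates changes of low genes.

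Expected counts were rounded and tested in edgeR 4.0.16 (R 4.3.3): filterByExpr, TMM, robust glmQLFit with group as the only factor, and 3 contrasts, with Benjamini-Hochberg adjustment over all 17235 genes tested. SE is the log2 fold change divided by the root of the quasi-likelihood F. Replicate pairs differed by a chi-square per gene of 2.66 to 5.19, where sampling noise gives about 1, so each library was counted. Intervals and SDs cover these libraries only, and no molecular identifiers are described. The functions were tested on simulated counts. Alternatives used DESeq2 1.42.0 and limma 3.58.1. Gene positions come from GENCODE v44 by gene ID, matched for 99.1% of tested genes.

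The members, the gene lists and the naming rule were chosen with earlier results of these data known. The rule named all members, the 3 smallest p-values in High against RFP per list among genes averaging 100 counts or more, and the 3 genes most like YAP1 and CTGF.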

Additional observations from a re-analysis of the deposited data

Results flagged for a closer look

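By the edgeR test of High against Low, 9 of the 10 members differed between these groups, as did 59.2% of all tested genes. The log2 differences of High against Low were 3.41 for ANKRD1, 1.37 for CYR61, 0.64 for CTGF, 0.59 for TEAD1, 0.58 for AMOTL2, 0.55 for TEAD2, 0.53 for AJUBA, 0.34 for LATS2 and -0.12 for YAP1. ANKRD1 moved in opposite directions in the ETS1 groups, with each Low library below and each High library above the RFP libraries. TEAD2, AJUBA and AMOTL2 did so as well on the CPM scale, but their rises in High cells did not pass the threshold on the FPKM scale. Clone and ETS1 level cannot be told apart in these differences.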

How the results depend on the processing

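Under DESeq2 size factors, upper-quartile factors, the DESeq2 test, no filter, at least 10 counts per library and fits of only the groups compared, 9 members were called in each comparison, and no log2 fold change of a member reversed with a call. On the 3 FPKM settings, 6 members were called in High against RFP and 10 in Low against RFP: TEAD2, AMOTL2 and AJUBA no longer passed in the former, and TEAD1 in Low against RFP turned from 0.04 to -0.23. Scaling and gene length both differ there, and the cause was not tested. Without ETS1-Low replicate 2, WWTR1 passed in High against Low, giving 10 members, against 9 in every other fit that left out a library. With the replicate block, 9 members were called in each comparison and 12701, 12729 and 10122 genes in all, against 12785, 12773 and 10196 without it. Same-numbered libraries correlated at -0.03 to 0.03 in their deviations with 0 of 9 pairs over 0.1. Of the 9 libraries, 0 correlated best with both libraries of their own number. No pairing by number was seen in these deviations, which cannot show whether same-numbered libraries were prepared together. FPKM without a filter gave 38.1% of all calls as higher in High against RFP (49.8% on counts) and 36.5% in Low against RFP (51.2% on counts). Each member had at least 262 counts in each library, and the precision rests on 3 libraries a group.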

Other observations

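AP-1 factors, which bind beside TEAD proteins at many target genes, were listed as 9 genes, all tested. In High against RFP 5 were called higher (37.0% of all tested genes) and 3 lower (37.2%), with a median log2 of 0.21. In Low against RFP also 5 were higher (37.9%) and 3 lower (36.2%), with a median of 0.38. In High against Low 1 was higher (29.9%), 4 lower (29.3%) and 4 not called, with a median of 0.01. FOS fell from 213 ± 5.96 CPM in RFP cells to 181 ± 3.19 CPM in Low cells and 141 ± 3.50 CPM in High cells (SD, n = 3), and JUN from 69.4 ± 3.56 to 46.0 ± 0.89 and 47.4 ± 3.43 CPM. FOSL2 rose from 44.2 ± 1.37 to 60.8 ± 0.88 and 62.1 ± 4.22 CPM. FOSL1, named after its values were seen, went from 4.90 ± 0.10 to 13.7 ± 1.28 and 7.42 ± 0.35 CPM. Its log2 fold change of 1.49 in Low against RFP was the highest of the list there.

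The ratio of expected count to FPKM and library total gives the transcript length that RSEM used for a gene, which moves with the mix of isoforms it estimated. For TEAD1 it was 5.54 ± 0.090 kb in RFP, 6.12 ± 0.22 kb in Low cells and 5.90 ± 0.086 kb in High cells (SD, n = 3), and the RFP libraries (5.48 to 5.64 kb) overlapped neither ETS1 group. The log2 ratio of Low cells to RFP was 0.14 for TEAD1, where 5% and 95% of 11956 genes lay at -0.13 and 0.13. For YAP1 it was 4.16 ± 0.16, 4.39 ± 0.095 and 4.49 ± 0.045 kb. For ANKRD1 and CTGF the group means differed by less than 0.01 kb, at 1.80 and 2.16 kb. The 4 genes were picked after their values were seen, and no test was run on the lengths.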
